A study of Homo sapiens with 15 samples.

Results

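EGFR, ERBB2, ERBB3, MET, AXL, IGF1R, INSR, FGFR1, EPHA2 and DDR1 are receptor tyrosine kinases that have been studied in pancreatic cancer. These 10 genes were taken from a named list, and all 10 were present among the 16887 genes of both deposited expression tables. They were measured by mRNA sequencing in Mia PACA-2, an established human pancreatic cancer cell line obtained from ATCC, in 15 libraries that formed 3 groups of 5. The groups were control cells, cells overexpressing cytidine deaminase (CDA), an enzyme that deaminates cytidine and deoxycytidine, and cells overexpressing the E67Q form of that enzyme (CDA_E67Q). All cells were grown in the same serum-containing medium, and the labels list no treatment. The sources used here do not tell how overexpression was obtained, what the control cells carried, or whether a pool is a clone, a culture or a mixture. Each library has a pool number from 1 to 5, and each number holds 1 library of each group. Separate cultures are not documented, so the p-values cover the variation among the libraries sequenced, part or all of which may be technical.

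Receptor tyrosine kinases are membrane proteins whose extracellular part binds a ligand and whose intracellular part is a tyrosine kinase. In many receptors of this class, though not in all, ligand binding brings the chains together and the kinases phosphorylate each other. Adaptor proteins then dock and start the RAS-MAPK and PI3K-AKT pathways. Several of these receptors have been tested as drug targets in pancreatic cancer. A transcript level says nothing of how much receptor is at the membrane or phosphorylated.

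The values used were normalised counts recovered from the authors' deposited log2 values, which sum to 23.3 to 28.4 M per library with 12508 to 13090 genes above the floor of the scale. The CDA transcript itself checked the labels. In the control it was at 16.7, 250, 312, 9.91 and 77.2 in pools 1 to 5, in the CDA group at 1141, 5222, 2205, 775 and 1429, and in CDA_E67Q at 1357, 1746, 5475, 1676 and 2480. No control library reached the lowest overexpressing library (2-sided exact permutation p = 0.00794 for each group, the smallest that 5 against 5 libraries can give). On the first principal component of all genes tested, the pool 5 libraries scored 83.9 to 90.7 and every other library -2.67 or lower. Markers of the line were in part those of an epithelial cell and in part not. The keratins KRT8, KRT18 and KRT19 ranged from 10919 to 43488, from 8490 to 32331 and from 1499 to 7887, and CLDN4 from 117 to 5945. EPCAM and CDH1, of the same epithelial list, never exceeded 3.50 and 3.59. Mesenchymal markers were mixed as well. Vimentin (VIM) was at least 115980 in every library and ZEB1 was at 725 to 2105.5. FN1 was at 1.95 to 40.8 and CDH2 was at 0 in 14 libraries. The acinar enzyme genes PRSS1 and CELA3A, the fibroblast genes DCN and LUM and the neuroendocrine genes CHGA and INSM1 were at 0 in all 15 libraries. Other genes of these lists were present, with the collagen gene COL1A2 at 6983 to 41579, COL3A1 at 11.2 to 3933, ENO2 at 878 to 3566 and SYP at 60.5 to 357.

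The levels of the receptors in control cells were compared between genes only after division by transcript length, as normalised counts per kb in the 5 control libraries. EPHA2, a receptor for the membrane-bound ephrin-A ligands, had the highest level, 2094 ± 619 per kb (mean ± SD, n = 5), and was the highest of the 10 in every control pool. Below it came ERBB2, the EGFR relative that has no known ligand of its own, at 780 ± 189 per kb. DDR1, a receptor for collagen, stood at 758 ± 414 per kb, and AXL, the receptor for GAS6, at 640 ± 108 per kb. ERBB2 exceeded DDR1 in 3 of 5 pools and DDR1 exceeded AXL in 2 of 5, so the order of these neighbours was not fixed over pools. All 5 pools placed AXL above EGFR, the receptor for EGF, amphiregulin and their relatives, which was at 284 ± 133 per kb. The fibroblast growth factor receptor FGFR1 followed at 163 ± 41.6 per kb, the insulin receptor INSR at 156 ± 63.9, the hepatocyte growth factor receptor MET at 149 ± 86.4 and the insulin-like growth factor receptor IGF1R at 141 ± 32.5. Neighbours among EGFR, FGFR1, INSR, MET and IGF1R kept their order in 2 to 4 of 5 pools. ERBB3, the neuregulin receptor whose own kinase is weak, was lowest at 54.1 ± 34.3 per kb and lay below IGF1R in 5 of 5 pools.

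The order depended on the length used. The main length was that of the transcript with the longest coding sequence. With the median length of each gene's coding transcripts instead, DDR1 came first at 3506 per kb, ahead of EPHA2 at 2094, and IGF1R came last at 146. DDR1 has 43 annotated coding transcripts, many of them short, and EPHA2 has 1. Among all 56 receptor tyrosine kinases in the tables, EPHB4, RYK and PTK7 were the other receptors with a mean within the range of ERBB2, EPHA2 and DDR1, at 1120, 910 and 780 per kb. ERBB4, KDR, KIT, NTRK2, NTRK3, MUSK, TEK, ROS1 and ALK were listed at 0 in all 5 control libraries.

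Transcripts of some ligands of these receptors were present in the same cells. Among the EGFR ligands, amphiregulin (AREG) was at 2162 ± 898 per kb and epiregulin (EREG) at 1021 ± 596 per kb (mean ± SD, n = 5), while TGFA was at 3.56 ± 3.67 and EGF at 1.01 ± 0.697. The AXL ligand gene GAS6 was at 217 ± 124 per kb. IGF2, whose product binds IGF1R, was at 588 ± 375 per kb, whereas IGF1 and INS were listed at 0. HGF, the ligand gene of MET, was listed at 0 as well. The neuregulin gene NRG1, a source of ERBB3 ligand, was at 2.52 ± 2.26 per kb, and FGF2, a ligand gene of FGFR1, at 59.6 ± 31.2. For EPHA2 the highest ephrin was EFNA2, at 350 ± 125 per kb, and for DDR1 the highest collagen was COL1A2, at 4690 ± 2195 per kb, with COL1A1 at 11.0 ± 11.2.

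The comparisons of CDA and of CDA_E67Q with control asked whether overexpression of the active or the altered enzyme was accompanied by a change in the receptors. No receptor passed the test in either comparison, and no receptor had a value in every overexpressing library above, or below, every control. The overexpressed CDA transcript was not called by limma either, at adjusted p = 0.0676 with CDA and 0.0691 with CDA_E67Q. Its log2 differences were 4.71 and 5.09, so a lack of calls does not show a lack of change. The largest mean differences with CDA were a lower ERBB3 (log2 difference -0.66), a lower MET and EGFR (-0.34 each) and a higher EPHA2 (0.34), all with intervals that include 0. Single pools weighed heavily in them, in both directions. The CDA difference shrank to -0.21 for ERBB3 without pool 2, and to -0.017 for MET and -0.17 for EGFR without pool 4. For EPHA2 it shrank to 0.19 without pool 3. Without pool 1 it grew to -0.96 for ERBB3, -0.81 for MET and -0.59 for EGFR. Without pool 4 it grew to 0.48 for EPHA2. With CDA_E67Q the largest were a lower DDR1 (-0.38), a higher AXL (0.29) and a lower IGF1R (-0.29). These shrank to -0.17 for DDR1 and -0.13 for IGF1R without pool 2, and to 0.033 for AXL without pool 3. They grew to -0.57 for DDR1 without pool 1, and to 0.41 for AXL and -0.43 for IGF1R without pool 4. By limma with pool number as a block, 0 of 10 receptors were called for CDA against control, beside 0% of 11341 genes, and 0 of 10 had an unadjusted p under 0.05, beside 1.77%. For CDA_E67Q against control 0 of 10 were called, beside 0% of 11341 genes, and 0 of 10 had an unadjusted p under 0.05, beside 2.34%. The groups did not overlap for 0 of 10 receptors in both comparisons, beside 0.0529% and 0.0794% of the genes tested. A difference in the same direction in 5 of 5 pools was seen for 0 of 10 receptors, beside 3.57% of genes for CDA and 4.1% for CDA_E67Q. The median log2 difference of the 10 receptors was -0.099 with CDA (3 higher, 7 lower) and -0.087 with CDA_E67Q (3 higher, 7 lower), beside 0.011 and 0.0071 for all genes tested. Both comparisons use the same 5 control libraries. In bulk RNA, fewer cells with a transcript and less transcript per cell cannot be told apart.

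**Figure D1:**
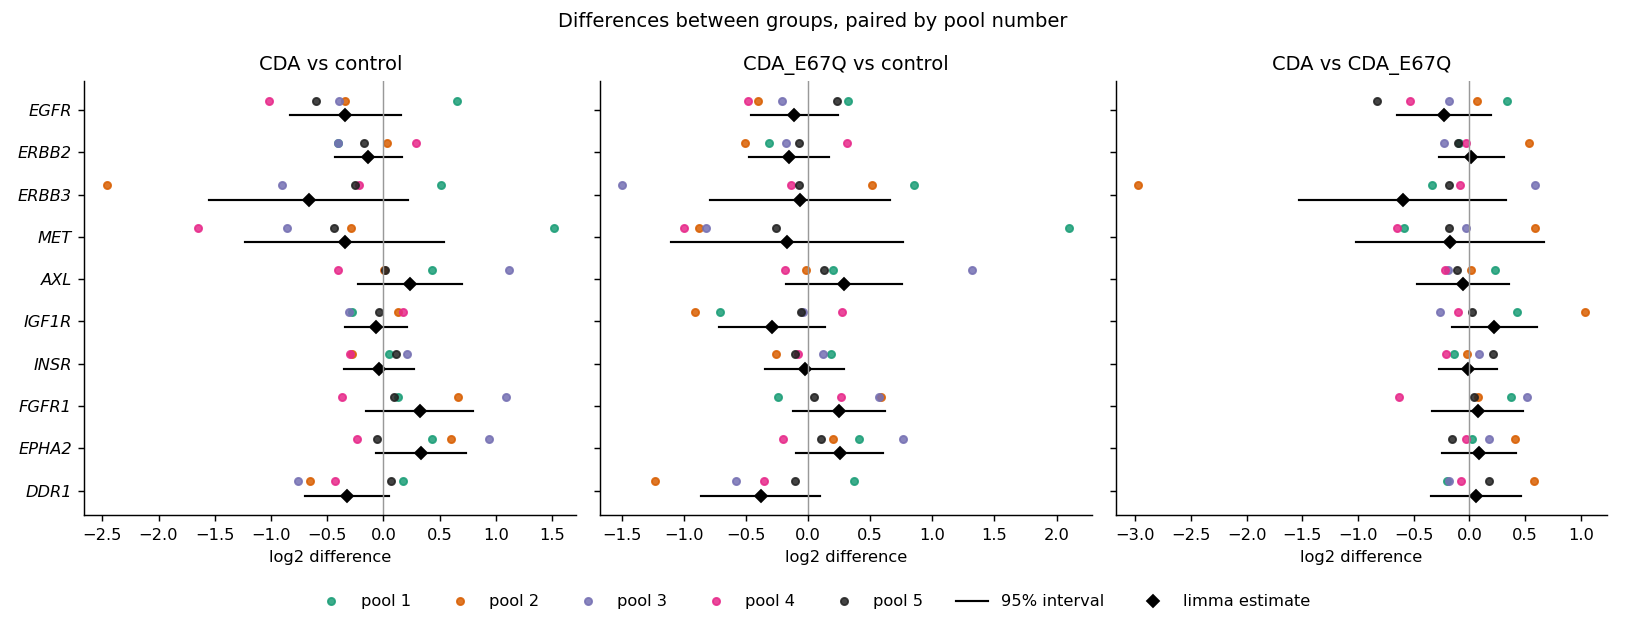
Log2 difference of each receptor between groups. Small points are the differences between libraries of the same pool number, diamonds are limma estimates and lines are their 95% intervals. All 30 intervals cross 0, and the widest belong to ERBB3 and MET, whose pairs range from -2.46 to 0.51 and from -1.65 to 1.52 for CDA against control.

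The values of each receptor are given below as normalised counts on 1 scale for all 15 libraries, in pools 1 to 5, and the log2 differences come from the fit within each comparison's own table. Adjusted p was 1.00 for every receptor with CDA and 0.998 for every receptor with CDA_E67Q, in limma with the Benjamini-Hochberg adjustment.

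EGFR, on chromosome 7 at 55019021 to 55211628 (GRCh38, plus strand), was at 2380, 1656, 2909, 4982 and 2034 in the control, at 3753, 1309, 2219, 2459 and 1344 in CDA, and at 2971, 1251, 2516, 3566 and 2387 in CDA_E67Q. The groups overlapped, and the highest library was the control of pool 4, where CDA was at 0.493 times the control. In pool 1 the order was opposite, with CDA at 1.58 times the control. The log2 difference was -0.34 with CDA (95% interval -0.83 to 0.16) and -0.11 with CDA_E67Q (-0.46 to 0.24). ERBB2, on chromosome 17 at 39687914 to 39730426 (plus strand), pairs with the other ERBB receptors to signal. It was at 3855, 2697, 3741, 2704 and 4725 in the control, at 2910, 2754, 2822, 3300 and 4190 in CDA, and at 3101, 1898, 3313, 3362 and 4498 in CDA_E67Q. Its libraries lay close together, with every group highest in pool 5, and pairs ranged from 0.754 to 1.22 times the control with CDA and from 0.702 to 1.24 times with CDA_E67Q. The log2 differences were -0.13 (-0.43 to 0.16) and -0.15 (-0.47 to 0.17).

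ERBB3, on chromosome 12 at 56076799 to 56103505 (plus strand), docks PI3K when it is phosphorylated by a partner receptor. It was the least abundant of the 10, at 184, 250, 278, 213 and 677 in the control, at 263, 44.6, 148, 183 and 569 in CDA, and at 333, 358, 98.0, 194 and 645 in CDA_E67Q. The CDA library of pool 2 and the CDA_E67Q library of pool 3 were the lowest, at 0.178 and 0.353 times their controls, and pool 5 was the highest in every group. The log2 difference was -0.66 with CDA (95% interval -1.55 to 0.22) and -0.066 with CDA_E67Q (-0.79 to 0.66). The CDA difference was -0.21 without pool 2 and -0.96 without pool 1, and the CDA_E67Q difference turned to 0.29 without pool 3. Its level also differed between the tables, since the authors' values of the same control libraries were 1.26 times as high in the CDA table as in the CDA_E67Q table.

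MET, on chromosome 7 at 116672390 to 116798386 (plus strand), drives cell scattering and motility when bound by hepatocyte growth factor. It was at 210, 543, 737, 656 and 1312 in the control, at 604, 444, 407, 209 and 967 in CDA, and at 907, 294, 417, 329 and 1095 in CDA_E67Q. Pool 1 went against the other pools. There the control was the lowest of its group, CDA was at 2.87 times and CDA_E67Q at 4.31 times the control, while pools 2 to 5 ranged from 0.318 to 0.818 times with CDA and from 0.499 to 0.839 times with CDA_E67Q. The log2 difference was -0.34 with CDA (95% interval -1.23 to 0.54) and -0.17 with CDA_E67Q (-1.10 to 0.76). Both depended on the pools in the fit. The CDA difference ran from -0.81 without pool 1 to -0.017 without pool 4, and the CDA_E67Q difference from -0.74 without pool 1 to 0.037 without pool 4. AXL, on chromosome 19 at 41219203 to 41261766 (plus strand), is a TAM-family receptor often raised in mesenchymal tumour cells. Its control values of 2614, 3033, 2481, 3743 and 3289 stood beside 3520, 3042, 5397, 2837 and 3330 in CDA and 2999, 3006, 6185, 3301 and 3603 in CDA_E67Q. Pool 3 held both the lowest control and the highest library of each overexpressing group, at 2.18 and 2.49 times the control, and the other pools ranged from 0.758 to 1.35 times with CDA and from 0.879 to 1.15 times with CDA_E67Q. The log2 differences were 0.23 (-0.23 to 0.70) and 0.29 (-0.18 to 0.76). They were 0.013 and 0.033 without pool 3, and 0.39 and 0.41 without pool 4.

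**Figure D2:**
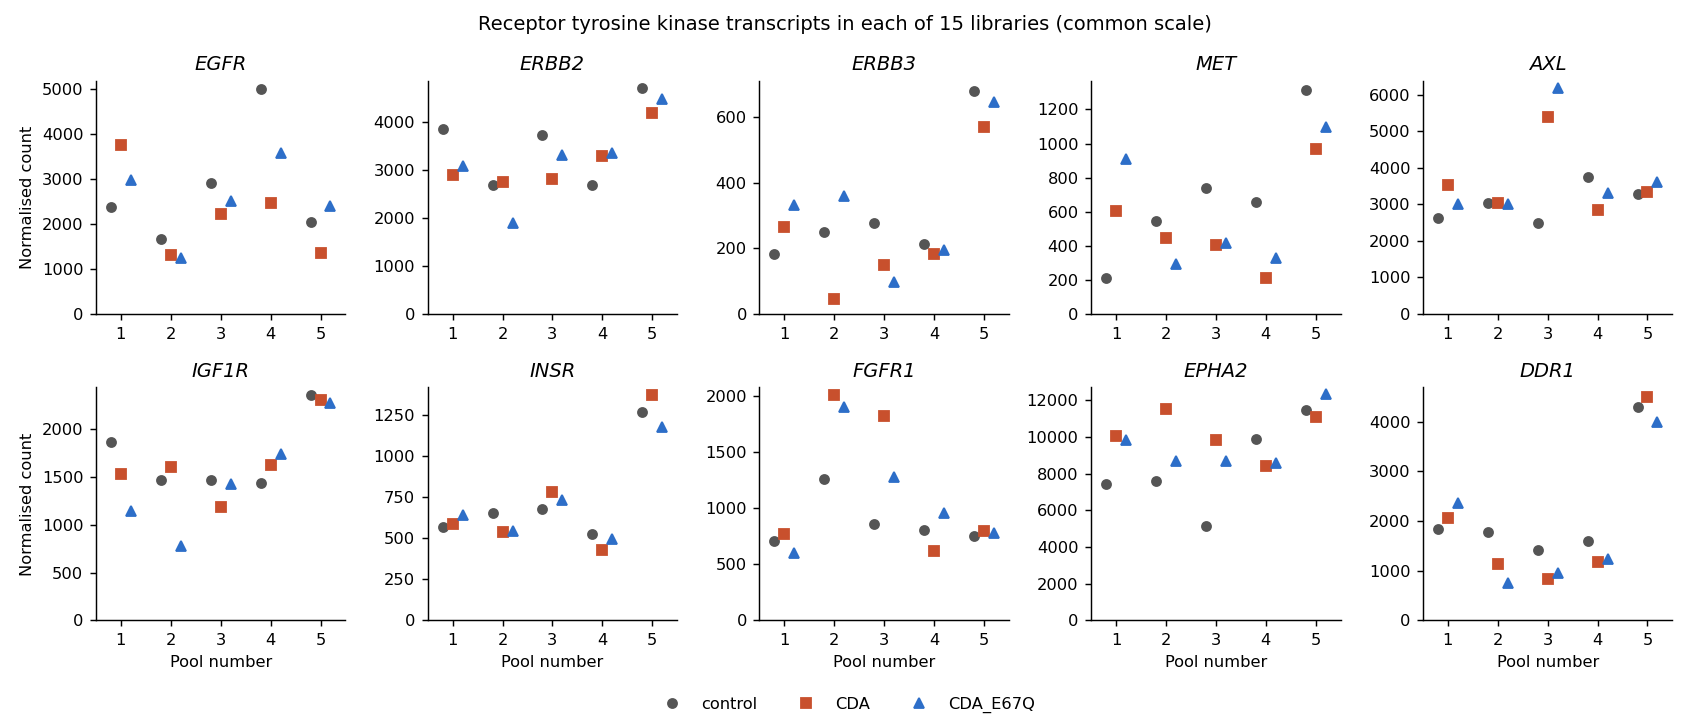
Normalised count of each receptor in all 15 libraries by pool number (vertical axes from 0), with circles for control, squares for CDA and triangles for CDA_E67Q. The 3 libraries of pool 5 lie together above the other 12 for ERBB2, ERBB3, MET, IGF1R, INSR and DDR1, and AXL in pool 3 shows the 2 overexpressing libraries at 5397 and 6185 above the control at 2481.

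IGF1R and INSR are related receptors that can also form hybrids with each other. IGF1R, on chromosome 15 at 98648539 to 98964530 (plus strand), was at 1864, 1469, 1468, 1442 and 2358 in the control, at 1534, 1608, 1190, 1622 and 2302 in CDA, and at 1141, 782, 1427, 1740 and 2271 in CDA_E67Q. CDA and control overlapped closely, at 0.810 to 1.13 times, and the lowest library was CDA_E67Q of pool 2, at 0.531 times its control. The log2 difference was -0.064 with CDA (95% interval -0.34 to 0.21) and -0.29 with CDA_E67Q (-0.71 to 0.14). INSR, on chromosome 19 at 7112255 to 7294034 (minus strand), was at 565, 651, 676, 526 and 1265 in the control, at 583, 537, 781, 428 and 1368 in CDA, and at 642, 545, 734, 496 and 1177 in CDA_E67Q. The 3 groups nearly coincided in each pool, at 0.813 to 1.16 times the control with CDA and 0.837 to 1.14 times with CDA_E67Q. The log2 differences were -0.041 (-0.35 to 0.27) and -0.028 (-0.35 to 0.29). FGFR1, on chromosome 8 (minus strand), was at 706, 1262, 858, 801 and 749 in the control, at 772, 2005, 1825, 620 and 799 in CDA, and at 597, 1899, 1279, 961 and 775 in CDA_E67Q. Every group was highest in pool 2. CDA was at 1.59 and 2.13 times the control in pools 2 and 3, CDA_E67Q at 1.50 and 1.49 times, and the other pools lay between 0.774 and 1.19 times. The log2 differences were 0.32 (-0.15 to 0.80) and 0.25 (-0.12 to 0.62).

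EPHA2, on chromosome 1 at 16124337 to 16156087 (minus strand), was the most abundant of the 10 per kb. It was at 7407, 7596, 5122, 9893 and 11482 in the control, at 10021, 11541, 9804, 8418 and 11064 in CDA, and at 9833, 8707, 8683, 8601 and 12328 in CDA_E67Q. The low control libraries of pools 1 to 3 lay below every CDA and CDA_E67Q library, and those of pools 4 and 5 lay among them. The log2 difference was 0.34 with CDA (95% interval -0.063 to 0.74, unadjusted p = 0.0881), with 3 of 5 pools higher, and 0.25 with CDA_E67Q (-0.093 to 0.60, unadjusted p = 0.133), with 4 of 5 pools higher. DDR1, on chromosome 6 at 30876421 to 30900156 (plus strand), was at 1832, 1781, 1419, 1592 and 4298 in the control, at 2061, 1131, 836, 1179 and 4503 in CDA, and at 2363, 756, 951, 1244 and 3986 in CDA_E67Q. Pools 2, 3 and 4 were lower than their controls in both groups, at 0.589 to 0.741 times with CDA and 0.424 to 0.779 times with CDA_E67Q, whereas pool 1 was at 1.13 and 1.29 times. Of the 10 receptors DDR1 had the smallest unadjusted p in each comparison with control, with a log2 difference of -0.32 (-0.70 to 0.053, unadjusted p = 0.0832) with CDA and of -0.38 (-0.86 to 0.095, unadjusted p = 0.103) with CDA_E67Q.

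The contrast of the active with the altered enzyme used all 15 libraries on the common scale. By limma 0 of 10 receptors were called, beside 0% of 11588 genes, 0 of 10 had an unadjusted p under 0.05, beside 1.1%, and the groups did not overlap for 0 of 10, beside 0.0431%. The 5 pools differed in the same direction for 0 of 10 receptors, beside 4.46% of genes. Adjusted p was 1.00 for every receptor. The receptors split into 5 higher and 5 lower with CDA, and their median log2 difference was 0.0017, beside -0.0014 for all genes. ERBB3 differed most, by -0.60 (95% interval -1.53 to 0.33), with 44.6 in CDA against 358 in CDA_E67Q in pool 2. Its difference was -0.0027 without that pool and -0.89 without pool 3. IGF1R was next by size of the unadjusted p, at 0.22 (-0.16 to 0.61), again with its widest pair in pool 2, at 1608 against 782. Its difference was 0.021 without that pool and 0.35 without pool 3. EGFR differed by -0.23 (-0.65 to 0.19), by -0.079 without pool 5 and by -0.37 without pool 1. MET differed by -0.17 (-1.01 to 0.67), by -0.052 without pool 4 and by -0.36 without pool 2. The other 6 receptors differed by 0.084 or less in either direction, with the narrowest interval for INSR, at -0.014 (-0.28 to 0.25).

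Other genes of the pathway were read from lists of known ligands, co-receptors, adaptors, inhibitors and transcriptional outputs. With CDA against control, 0 genes of these lists were called by limma, and an unadjusted p under 0.05 was found for 2 other receptors, 1 ligand, 1 inhibitor and 1 MAPK output gene, 5 of 124 listed genes tested (4.03%), beside 1.77% of all genes. With CDA_E67Q 0 were called, and an unadjusted p under 0.05 was found for 1 other receptor, 3 ligands, 3 adaptors, 3 inhibitors and 2 MAPK output genes, 12 of 124 (9.68%), beside 2.34% of all genes. List medians of the log2 difference ran from -0.079 (other receptors) to 0.13 (MAPK output) with CDA and from -0.042 (co-receptors) to 0.13 (MAPK output) with CDA_E67Q, beside 0.011 and 0.0071 for all genes tested. Of 21 other receptor tyrosine kinases tested, 8 were higher and 13 lower with CDA, and 11 higher and 10 lower with CDA_E67Q. ROR2, a WNT5A receptor, was at 25.3 ± 11.8 with CDA against 58.6 ± 40.5 (mean ± SD, n = 5), and at 22.6 ± 14.9 with CDA_E67Q against 56.6 ± 39.2 in that table. The collagen receptor gene DDR2, a relative of DDR1, was at 3818 ± 1936 with CDA against 2255 ± 724, and at 3146 ± 1621 with CDA_E67Q against 2225 ± 714. Ligand genes split evenly, with 11 higher and 10 lower of 21 in each comparison. HBEGF, an EGFR ligand, was at 479, 817, 538, 378 and 257 in pools 1 to 5 with CDA. Its control was at 261, 399, 238, 386 and 237 (log2 difference 0.63, unadjusted p = 0.0198 in limma). With CDA_E67Q it was at 449, 1360, 260, 291 and 310 against 254, 390, 232, 377 and 230. The EGFR and ERBB4 ligand gene BTC was at 364, 111, 49.1, 258 and 373 with CDA against 443, 229, 483, 351 and 300, and had a log2 difference of -0.94 (unadjusted p = 0.0737) with CDA and of -1.17 (unadjusted p = 0.0289) with CDA_E67Q. IGF2 differed by 0.83 with CDA_E67Q (unadjusted p = 0.0366 in limma), with 3 of 5 pools higher and pairs from -0.23 to 2.21 log2. With CDA it was at 581, 4088, 1105, 344 and 964 against 299, 839, 1708, 460 and 1347.

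Co-receptors and sheddases gave 7 higher and 5 lower of 12 with CDA, and 5 and 7 with CDA_E67Q. The smallest p-values belonged to the syndecan SDC4 (log2 difference 0.26) and the mannose 6-phosphate receptor IGF2R (-0.12) with CDA, and to CD44, a partner of MET (0.24), and the inactive rhomboid RHBDF1 (-0.22) with CDA_E67Q. Adaptors and proximal effectors gave 22 higher and 14 lower of 36 with CDA, and 17 and 19 with CDA_E67Q. The docking protein gene GAB2 was at 135 ± 84.7 with CDA against 79.1 ± 48.2, higher in 5 of 5 pools, and at 141 ± 71.2 with CDA_E67Q against 77.9 ± 47.2. Smallest p-values also fell to the insulin receptor substrate IRS2 with CDA (log2 difference 0.43) and the MAPK kinase MAP2K2 with CDA_E67Q (0.47, 5 of 5 pools higher). Inhibitors gave 14 higher and 11 lower of 25 with CDA, and 13 and 12 with CDA_E67Q. The receptor regulator LRIG2 was at 414 ± 52.6 with CDA against 546 ± 80.1, lower in 5 of 5 pools. It was also lower in each pool with CDA_E67Q, at 403 ± 116 against 537 ± 78.0. IGFBP4, which binds insulin-like growth factors, differed by 0.65 with CDA. DUSP7 and DUSP5, phosphatases that inactivate ERK, differed by 0.45 and 0.84 with CDA_E67Q, each higher in 5 of 5 pools. Single pools differed widely in size. Pairs ranged from 0.20 to 0.69 log2 for DUSP7, from 0.020 to 2.07 for DUSP5 and from 0.020 to 1.09 for MAP2K2 with CDA_E67Q. With CDA they ranged from 0.074 to 2.42 log2 for GAB2.

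Transcripts induced by MAPK signalling were higher in 8 of 10 with CDA and in 6 of 10 with CDA_E67Q, with a median log2 difference of 0.13 in both. FOSL1, an AP-1 transcription factor gene, was at 2950, 4887, 2563, 3477 and 823 in the control and at 4121, 8920, 4185, 3858 and 943 with CDA. It was higher in 5 of 5 pools with CDA (log2 difference 0.48, 95% interval 0.17 to 0.79, unadjusted p = 0.00682) and in 5 of 5 with CDA_E67Q (0.36, 0.077 to 0.64, unadjusted p = 0.0181), and it did not pass the adjusted threshold in limma (adjusted p = 1.00 and 0.998). ETV4 differed by 0.25 and 0.35. Between CDA and CDA_E67Q 0 listed genes were called by limma, and 1 of 127 had an unadjusted p under 0.05 (0.787%), beside 1.1% of all genes. It was LRIG1, a negative regulator of ERBB receptors, at 199 ± 101 with CDA against 127 ± 33.7 with CDA_E67Q (log2 difference 0.55, unadjusted p = 0.0386).

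The pool number, unlike the group, separated most of the receptors. By limma with group in the fit, 7 of 10 receptors differed between the 5 pool numbers, beside 45% of 11588 genes. DDR1 (adjusted p = 0.000224) and INSR (0.000257) had the smallest p, with ranges of 2.03 and 1.39 log2 between the highest and the lowest pool mean. FGFR1 (adjusted p = 0.00383, range 1.29), EGFR (0.00566, 1.34), ERBB2 (0.0149, 0.89), IGF1R (0.0389, 0.91) and ERBB3 (0.0441, 1.98) were also called. MET (adjusted p = 0.0901, range 1.65), EPHA2 (0.155, 0.61) and AXL (0.319, 0.53) were not. None of these calls held without pool 5, in a fit that also had fewer libraries. Without it 0 of 10 receptors and 163 genes were called, and the receptors nearest to the threshold were EGFR (adjusted p = 0.0731), FGFR1 (0.0809) and DDR1 (0.174). For EGFR and FGFR1, pool 5 was neither the highest nor the lowest pool, and the EGFR range stayed at 1.34 without it. Other pools decided single calls. That of EGFR ended without pool 2 (adjusted p = 0.0577) and that of ERBB3 without pool 4 (0.0508), and MET was called without pool 1 (0.00227).

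Sorted after their values were seen, the receptors showed 3 patterns over the pools. In pool 5 all 3 libraries lay above the other 12 for ERBB2, ERBB3, MET, IGF1R, INSR and DDR1, 6 of 10 receptors, beside 16.9% of 11588 genes. Pool 5 lay below the other 12 for 0 of 10, beside 17.3%. The mean of DDR1 was 4262 in pool 5 and 1069 to 2085 in pools 1 to 4, that of INSR 1270 against 484 to 730, and that of ERBB3 630 against 175 to 260. IGF1R averaged 2310 in pool 5 and 1286 to 1601 elsewhere, MET 1124 and 398 to 574, and ERBB2 4471 and 2450 to 3292. EGFR and FGFR1 had other orders. EGFR was highest in pools 4 and 1, at means of 3669 and 3035, and lowest in pool 2, at 1405. FGFR1 was highest in pools 2 and 3, at 1722 and 1321, and lowest in pool 1, at 692. AXL and EPHA2 varied least between pools, AXL from 3027 in pool 2 to 4688 in pool 3 and EPHA2 from 7870 in pool 3 to 11625 in pool 5. INSR was also lower in the 3 libraries of pool 4 than in the other 12, beside 1.79% of genes. In pools 1 to 4, 0 of 10 receptors lay above the other libraries, beside 0.25, 1.55, 1.01 and 1.42% of genes, and in pools 1 to 3, 0 of 10 lay below them, beside 0.337, 1.77 and 1.08%. Counting any pool and either side gives 6 of 10 receptors, beside 40.8% of genes.

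Pool number accounted for a median of 66.3% of the log2 variance of the receptors and group for 6.10%, beside 61.0% and 4.35% for all genes tested. These are raw shares, and 5 pool numbers take up more variance than 3 groups even where neither makes a difference. INSR was the most reproducible within a pool. Its SD of log2 values after pool and group were taken out was 0.14, at percentile 6.64 of all genes tested. ERBB3 and MET were the most variable, with 0.81 and 0.74, and the other 7 receptors lay between 0.21 and 0.35. In pool 5, levels of some marker genes of other cell types also differed. The summed endothelial markers averaged 601 in pool 5 and 1.76 to 11.6 in pools 1 to 4, almost all of it CDH5, with KDR at 0 in all 15 libraries and PECAM1 at most at 4.99. The summed leukocyte markers averaged 2217 in pool 5 and 400 to 1248 elsewhere, with PTPRC at 0 in 12 and CD3E at 0 in 14 libraries. Nearly all of that sum was CD68, LYZ and CD14, at 343 to 1749, 3.92 to 1200 and 0 to 672 over the 15 libraries. The summed epithelial markers, at 38704 in pool 5, lay within the range of the other pools (36070 to 66943). The summed mesenchymal markers, mostly VIM, averaged 286310 in pool 5 and 136930 to 215480 elsewhere. The part of these markers in the receptor levels was not tested.

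Other genes of the pathway also differed between pools, in 15 of 24 other receptor tyrosine kinases, 13 of 21 ligands, 9 of 12 co-receptors and sheddases, 15 of 36 adaptors, 10 of 25 inhibitors and 9 of 10 MAPK output genes, beside 45% of all genes. RET, the receptor of the GDNF family, averaged 841 in pool 5 and 153 to 397 in the others. The ligand gene EREG averaged 10188 in pool 5 and 2939 to 4408 elsewhere, and EFNA1, a ligand gene of EPHA2, 1252 against 149 to 296. The phosphatase gene PTPRF averaged 39763 in pool 5, 21236 in pool 1 and 4672 in pool 3. FOSL1 ran the other way, with 924 in pool 5 and 3445 to 7071 in pools 1 to 4, and so did the RAS gene HRAS, with 485 against 1398 to 2348.

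INSR, IGF1R and MET were high together in pool 5 and EGFR was not, so the bases before their start sites are set side by side. Sequences are the 250 bases before a RefSeq transcript start in GRCh38.p14, 5′ to 3′ on the gene's strand, and capitals mark each GC box, the motif GGGCGG or its reverse complement CCGCCC, which SP1-family factors bind. The windows lie at chr19:7294415-7294664 (minus strand) for INSR, chr15:98648289-98648538 (plus) for IGF1R, chr7:116671946-116672195 (plus) for MET and chr7:55018767-55019016 (plus) for the first of 2 EGFR starts.
INSR: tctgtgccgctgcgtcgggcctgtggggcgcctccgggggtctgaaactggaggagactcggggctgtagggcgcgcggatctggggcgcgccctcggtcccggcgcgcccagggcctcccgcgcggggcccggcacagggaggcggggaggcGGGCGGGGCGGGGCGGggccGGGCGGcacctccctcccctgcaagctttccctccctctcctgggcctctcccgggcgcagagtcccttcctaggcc
IGF1R: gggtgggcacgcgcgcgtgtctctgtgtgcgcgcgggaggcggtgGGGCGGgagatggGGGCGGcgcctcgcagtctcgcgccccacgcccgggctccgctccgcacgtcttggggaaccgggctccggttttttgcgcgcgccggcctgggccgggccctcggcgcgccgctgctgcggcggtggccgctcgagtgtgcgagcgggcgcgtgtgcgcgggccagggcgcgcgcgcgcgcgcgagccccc
MET: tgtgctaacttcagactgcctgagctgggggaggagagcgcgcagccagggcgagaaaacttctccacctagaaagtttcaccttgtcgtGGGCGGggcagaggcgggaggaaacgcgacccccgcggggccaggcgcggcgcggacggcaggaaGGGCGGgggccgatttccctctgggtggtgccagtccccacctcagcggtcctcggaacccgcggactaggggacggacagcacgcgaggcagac
EGFR: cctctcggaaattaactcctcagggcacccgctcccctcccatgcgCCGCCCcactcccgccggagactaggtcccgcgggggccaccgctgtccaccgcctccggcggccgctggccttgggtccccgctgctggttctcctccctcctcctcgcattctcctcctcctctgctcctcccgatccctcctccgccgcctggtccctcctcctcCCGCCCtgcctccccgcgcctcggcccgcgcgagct
INSR held 4 GC boxes, of which neighbours overlap, and IGF1R, MET and EGFR held 2 each, so the motif was present in receptors of both patterns. It was present in 42.6% of 35116 promoter windows of the same length. The forkhead motif GTAAACA, present in 2.98% of windows, and the E-box CAGGTG, present in 17.5%, were in none of these 4 on either strand. The GC content was 78.4% in INSR, 81.2% in IGF1R, 68.4% in MET and 73.6% in EGFR, beside a median of 58% for all windows. RefSeq windows were at hand for 8 of the 10 receptors. Of the others high in pool 5, ERBB2 held 0 GC boxes in its window and DDR1 held 0 to 3 in its windows. The ERBB2 window, at 39687844 to 39688093, spans the annotated start of the gene at 39687914. ERBB2 has 11 coding transcripts, and no other window of it was at hand. The second EGFR window held 0, at a GC content of 38.8%. A link between the motif and the pool pattern was not tested.

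For each receptor the gene most like it was the one with the highest Pearson correlation of log2 level over the 15 libraries, among 11587 other genes tested. As the libraries share pool numbers and pool 5 stands apart, these values are descriptions, and each is followed by the value over the 12 libraries without pool 5, an alternative chosen after the data were seen. INSR was most like OGDHL (r = 0.977, 0.879 without pool 5) and ERBB2 most like FAM161A (0.976, 0.957). DDR1 followed TSC22D1 (0.969, 0.911), IGF1R followed ZC3H11A (0.965, 0.931) and MET followed the zinc finger gene ZNF426 (0.961, 0.938). EGFR was most like the chloride transporter gene CLCN3 (0.934, 0.960), ERBB3 like CAMSAP3 (0.934, 0.871) and FGFR1 like TNFSF8 (0.925, 0.931). The least close partners were those of AXL, IGF2BP2 (0.908, 0.922), and of EPHA2, AMPD3 (0.876, 0.830). No receptor was the closest gene of another.

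Some exons of these receptors overlap other genes, and the sources used here do not tell whether the counting used strand, so reads of such stretches are uncertain. The largest shared part was 5.53% of the exon bases of ERBB2 with MIEN1, and 1.88% with PGAP3, both on the opposite strand. EGFR shared 1.49% with EGFR-AS1, AXL 1.30% and FGFR1 1.13% with antisense genes, and DDR1 0.987% with MIR4640.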

How the data were processed

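The authors deposited 2 tables of log2 values, 1 with control and CDA and 1 with control and CDA_E67Q libraries. The submitters' processing notes name bcl2fastq, FastQC, Trimmomatic and Salmon with GRCh38. How Salmon output became these values is not stated there. Every gene without reads holds a floor of 6.65 or 6.17, the form of variance-stabilised counts, so values were turned back into normalised counts with that form's inverse. The control libraries shared by both tables put all 15 libraries on 1 scale (largest residual 3.06e-08 log2 over 11793 genes). Whole reads were not recoverable (28.8 to 40.5% of values under 12 lay within 0.05 of a whole read), so depth in reads is unknown and no count test was run.

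Genes with at least 10 in at least 5 libraries, all 10 receptors included, were tested with limma 3.58.1 (R 4.3.3, trended variance) on log2(normalised count + 1), which understates changes of low genes. Pool number was a block, each comparison with control stayed in its own table, and the Benjamini-Hochberg threshold was 0.05 over all genes. CDA against CDA_E67Q and the pool F-test (group as covariate) used all 15 libraries. The fits were tested on simulated data. Lengths and positions came from GENCODE annotation on GRCh38, promoter windows from RefSeq GRCh38.p14. Python 3.11.15 with pandas 2.3.3, scipy 1.17.1 and matplotlib 3.10.9 did the rest.

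The receptors and gene lists were chosen with earlier results of these data known. Named by rule were the receptors, CDA, the 2 genes of each list with the smallest p in a comparison with control, and each receptor's most correlated genes. Of such list genes for the pool numbers and for CDA against CDA_E67Q, only some are given. Alternatives were another pseudocount (10), no filter or a minimum of 100, upper-quartile scaling, no block, deposited values, all libraries in 1 fit, the median transcript length, and each pool left out.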

Additional observations from a re-analysis of the deposited data

Results flagged for a closer look

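Of 30 sets of 5 libraries (10 receptors in 3 groups), 3 had a highest library whose gap to the next, on log2 values, was a larger share of the whole range than Dixon's critical value allows. Chance flags about 1 in 20 such sets, or 1.5 of 30. AXL in the CDA_E67Q library of pool 3 was at 6185, and the other 4 libraries of that group were at 2999 to 3603. INSR in the control of pool 5 was at 1265, against 526 to 676 in the other controls. DDR1 in the control of pool 5 was at 4298, against 1419 to 1832. The INSR and DDR1 values belong to pool 5, whose libraries stand apart in all 3 groups. On normalised counts, a scale added after the data were seen, 6 of 30 sets exceeded it. The added sets were ERBB3 in the control (677 in pool 5), FGFR1 in the control (1262 in pool 2) and AXL in CDA (5397 in pool 3).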

How the results depend on the processing

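No receptor was called in any of the 12 alternatives to each comparison with control, or in the 10 alternatives to CDA against CDA_E67Q. Over all genes 1 gene, CDA itself, was called in place of 0 for CDA against control with a pseudocount of 10, with deposited values and the replicate block, and with all 15 libraries in 1 fit. For CDA_E67Q against control 1 gene, again CDA, was called under these settings and with a minimum of 100 in 5 libraries. Pool numbers were not shown to pair the libraries, since deviations of same-numbered libraries correlated at 0.00378 and -0.0754 in pool 1 and at 0.311 to 0.89 in pools 2 to 5, and 3 of 5 libraries correlated best with their own number. The block was kept because the receptors were to be compared by pool number. With no replicate block 0 genes were called in each comparison, and 32, 54 and 24 genes had an unadjusted p under 0.05 for CDA, CDA_E67Q and CDA against CDA_E67Q, in place of 201, 265 and 127. With each pool left out in turn, 0 genes were called in the 3 comparisons of groups, 163 to 5660 genes differed between pool numbers in place of 5217, and 0 to 8 receptors did in place of 7. The lowest of both came without pool 5. The other pools left out in turn gave 4506 to 5660 genes and 6 to 8 receptors. The ERBB3 call between pools also ended with no low-value filter (adjusted p = 0.0585 in limma).

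Small differences changed sign when a pool was left out, each over the range given. With CDA, INSR ran from -0.10 without pool 3 to 0.017 without pool 2 and 0.023 without pool 4. With CDA_E67Q, ERBB3 ran from -0.29 without pool 1 to 0.29 without pool 3, MET from -0.74 without pool 1 to 0.0073 without pool 2 and 0.037 without pool 4, and INSR from -0.081 without pool 1 to 0.030 without pool 2. Between CDA and CDA_E67Q, ERBB2 ran from -0.11 without pool 2 to 0.079 without pool 3, and DDR1 from -0.071 without pool 2 to 0.12 without pool 1. INSR there ran from -0.071 without pool 5 to 0.018 without pool 1 and 0.036 without pool 4, and FGFR1 from -0.035 without pool 3 to 0.25 without pool 4. Signs stayed in the other alternatives. With the median transcript length, levels per kb in the control moved to 3506 for DDR1, 1095 for ERBB2, 946 for AXL, 833 for EGFR, 452 for MET, 312 for ERBB3 and 264 for FGFR1. The number of reads behind each value is unknown, so no counting interval can be given.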

Other observations

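In the control libraries the transcripts around the receptors spanned a wide range per kb (mean ± SD, n = 5). CD44, a cell-surface partner of MET, was at 5182 ± 1547 per kb. The heparan sulphate proteoglycan genes SDC4, SDC1 and GPC1, which help FGF bind its receptors, were at 841 ± 382, 786 ± 294 and 657 ± 335 per kb. ADAM17 and ADAM10, the proteases that release EGFR ligands from the membrane, were at 359 ± 75.6 and 344 ± 107 per kb. At the low end of the co-receptors, NRP1 was at 46.8 ± 38.4 per kb, KLB at 0.582 ± 0.561 and KL at 0.221 ± 0.209. Among MAPK output genes EGR1 and MYC were highest, at 5553 ± 2704 and 2950 ± 1556 per kb, and ETV1 was lowest, at 31.4 ± 41.9.

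Further genes that differed between pool numbers were chosen after their values were seen. ROR1, an orphan-type receptor, averaged 882 normalised counts in pool 5 and 15.7 to 23.7 in the other pools (limma adjusted p = 0.000907). NRP1, a co-receptor, averaged 25.9 in pool 3, 101 in pool 5 and 327 to 514 in pools 1, 2 and 4 (adjusted p = 0.000327). The adaptor gene SHC1 averaged 25898 in pool 5 and 9436 to 10913 elsewhere (adjusted p = 0.000304), and IRS1 was at 1059 in pool 3 and 2629 to 2992 elsewhere (adjusted p = 0.000312).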
